A study of Homo sapiens with 18 samples.

Results

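LNCaP cells were treated for 24 h with DHT in the presence of 30 µM MJC13, and the response of their transcripts to DHT was taken as the difference between the 3 arrays of cells given DHT and MJC13 and the 3 arrays of cells given MJC13 alone. These 6 arrays are part of a set of 18 Illumina expression arrays in 6 groups of 3. For comparison, the DHT response was also measured with flutamide (cells given DHT and flutamide against flutamide alone, each with 1 µM flutamide) and with no antagonist (DHT against the vehicle, DMSO). LNCaP is an established human cell line from a prostate carcinoma; androgen drives its growth, and its androgen receptor is mutated in the hormone-binding domain. All groups were kept in medium with charcoal-stripped serum, which holds little steroid, so that the androgen supplied was the DHT. The sample labels give DHT as 10 nM, whereas the methods of the study give a lower concentration. The sources do not say whether replicate arrays came from separate cultures, and p-values therefore measure only the spread between these arrays.

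The androgen receptor is held in the cytoplasm by Hsp90 and by cochaperones such as FKBP52 (FKBP4). DHT binding releases the receptor to the nucleus, where it binds DNA and changes transcription of secretory, metabolic and growth genes of the prostate epithelium. Flutamide is a classic antagonist whose active form competes with androgen for the hormone pocket. MJC13 is directed at a site on the surface of the receptor and holds the receptor complex in the cytoplasm. The question addressed here is which genes and processes still responded to DHT when MJC13 was present.

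Of 47223 probes, the 28334 whose mean log2 value over the 18 arrays exceeded 6.31 were tested, and these represent 14433 genes. All array medians were 6.60 as a result of quantile normalization. Markers of luminal prostate epithelium were measured above the same value for 10 of 10 genes, among them FOLH1 with a mean log2 value of 13.17 with DHT and MJC13 and 13.44 with MJC13 alone. The corresponding counts were 3 of 7 basal, 4 of 9 neuroendocrine, 9 of 12 mesenchymal and 4 of 7 blood cell markers. Among these, ENO2, VIM, ACTA2 and CD68 averaged 10.38, 10.63, 9.51 and 9.46 with DHT and MJC13, and 10.56, 10.54, 9.36 and 9.32 with MJC13 alone, while the basal keratins KRT5 and KRT14 and the neuroendocrine granule protein CHGA were below the value.

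The sample titles number the arrays 1 to 3 in each group, and these numbers were used as a block as well as left out. Arrays of the same number deviated together from their group means, with correlations of 0.16, 0.40 and 0.25 for numbers 1, 2 and 3. A second number, in the sample descriptions, differs from the title number for 11 of 18 arrays and was tried as another block. It is 1 for all 3 arrays with DHT and MJC13, and 3, 3 and 1 for the arrays with MJC13 alone. This number thus overlaps with the comparison itself, so a fit with it as a block can hardly separate it from the DHT response. Without a block, limma called no probe for DHT in the presence of MJC13 at a Benjamini-Hochberg adjusted p under 0.05 (0% of 28334 probes in each direction). The lowest adjusted p was 0.107, and 803 probes were higher (2.83%) and 801 lower (2.83%) at an unadjusted p under 0.05, compared with 1417 in both directions under no difference. With the title number as a block, limma called 4 probes as higher (0.0141%) and 1 as lower (0.00353%), and 4.49% of probes were higher and 4.35% lower at an unadjusted p under 0.05. At an adjusted p under 0.10, a threshold chosen after seeing the data, the blocked fit called 23 probes as higher (0.0812%) and 5 as lower (0.0176%). The blocked fit called 10 probes without the arrays numbered 2 and none without those numbered 1 or those numbered 3, and it called none when only the 6 arrays compared were fitted. For DHT against DMSO, the same tests called 50 probes as higher (0.176%) and 4 as lower (0.0141%) without the block, and 364 as higher (1.28%) and 105 as lower (0.371%) with it.

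The strongest of the 5 called probes, ILMN_1663787, is not paired with a gene by the array annotation. Its log2 values were 10.53, 8.82 and 11.09 with DHT and MJC13, and 7.59, 7.09 and 8.19 with MJC13 alone. The groups did not overlap, although the number 2 arrays were the lowest of each. The probe rose 5.74-fold (log2 difference 2.52 ± 0.34, SE with the block, adjusted p = 0.0235), against 9.08-fold with no antagonist.

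TRPM8, a calcium-permeable cold receptor of prostate epithelium and an androgen-induced gene, was the only called probe on a list of known androgen targets. Probe ILMN_1661637 read 7.90, 7.51 and 7.93 with DHT and MJC13, and 6.25, 6.17 and 6.36 with MJC13 alone. It rose 2.87-fold (log2 difference 1.52 ± 0.24, adjusted p = 0.0499 with the block and 0.152 without it). The log2 response was 2.08 with no antagonist and 1.25 with flutamide. A second TRPM8 probe, ILMN_2099315, was less bright and its log2 response was 0.50 with MJC13, against 2.11 with no antagonist, with the number 2 pair at -0.07.

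The other 3 called probes had values near 0 for the DHT response with no antagonist. NMI, an interferon-inducible protein that binds MYC and STAT proteins, read 9.70, 8.97 and 9.37 with DHT and MJC13, and 8.32, 8.12 and 8.32 with MJC13 alone. It rose 2.13-fold (log2 difference 1.09 ± 0.15, adjusted p = 0.0235 with the block and 0.441 without it). With no antagonist the NMI response was -0.10, from a mean of 8.83 with DHT and 8.93 with DMSO, so that the MJC13 group lay below and the group with DHT and MJC13 above both. Probe ILMN_1915480 read 7.77, 7.88 and 8.07 with DHT and MJC13, and 6.67, 6.81 and 6.71 with MJC13 alone. It rose by 1.18 on the log2 scale (adjusted p = 0.0443 with the block and 0.107 without it), against 0.19 with no antagonist. Probe ILMN_1760610 read 6.28, 6.43 and 6.27 with DHT and MJC13, and 7.38, 7.43 and 7.07 with MJC13 alone. It fell by 0.97 (adjusted p = 0.0443 with the block and 0.199 without it), against a higher value by 0.19 with no antagonist. The groups did not overlap for either probe, and neither is paired with a gene by the annotation. ILMN_1760610 averaged 6.32 with DHT and MJC13, close to the value that a probe had to exceed to be tested. The change of the DHT response by MJC13 was tested directly, as the signed difference between the responses with and without MJC13. No probe passed at an adjusted p under 0.05 in either limma fit. At an unadjusted p under 0.05 with the block, the signed difference was positive for 727 probes and negative for 902. A weaker fall with MJC13 counts as positive here. In that test the log2 change was 1.20 for NMI and -1.16 for ILMN_1760610, each with an adjusted p of 0.367 with the block.

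**Figure D1:**
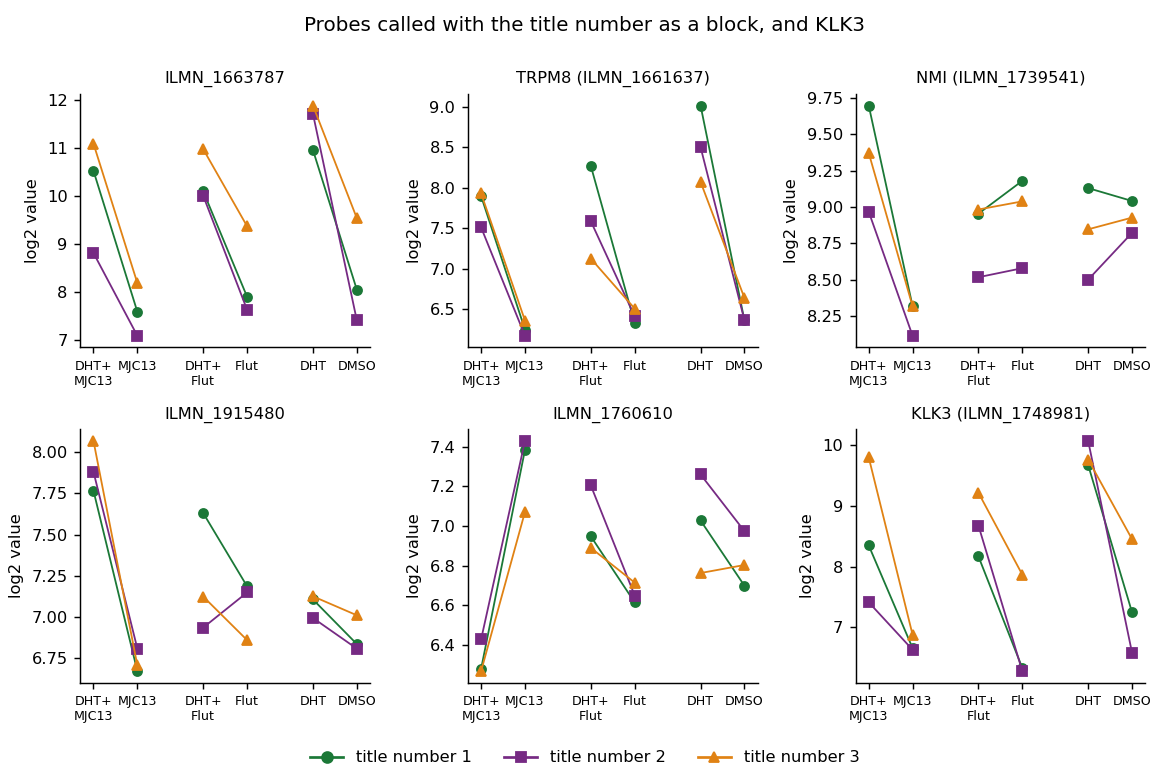
Log2 values of the 5 probes called with the title number as a block and of KLK3, in all 18 arrays, with lines joining arrays of the same title number. For NMI, ILMN_1915480 and ILMN_1760610 the arrays with DHT and MJC13 are separate from those with MJC13 alone, whereas the groups with DHT and with DMSO lie close together.

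Among 44 measured genes that androgen is known to raise (of 52 listed), 22 (50%) were higher with DHT and MJC13 at an unadjusted p under 0.05 in the blocked fit, and none lower. The background in the same test was 4.84% of 14433 genes higher and 4.07% lower. Without the block, 14 were higher and none lower (2.9% and 2.57% of all genes). The median log2 response of the list was 0.41 with MJC13, 0.77 with no antagonist and 0.31 with flutamide, and that of all genes was -0.00 with MJC13. Several of these genes were named by the study from these arrays, so the list is not independent evidence of its direction. The number 2 pair gave a median of 0.09, compared with 0.48 and 0.61 for numbers 1 and 3.

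KLK3, which encodes prostate-specific antigen, read 8.35, 7.41 and 9.80 with DHT and MJC13, and 6.66, 6.63 and 6.88 with MJC13 alone. The groups did not overlap, and the array numbered 2 was again the lowest with DHT. The difference was 3.47-fold (log2 1.80 ± 0.37, adjusted p = 0.106 with the block and 0.744 without it), against 5.30-fold with no antagonist. KLK4, a related secreted kallikrein, averaged 13.78 ± 0.35 with DHT and MJC13 and 12.68 ± 0.38 with MJC13 alone (SD, n = 3 each). SLC45A3, the prostein transporter, read 12.96, 12.63 and 12.64 with DHT and MJC13, and 11.58, 12.11 and 11.52 with MJC13 alone. For these 2 genes the log2 response with MJC13 was 1.10 and 1.01, close to that with no antagonist (1.19 and 1.01). The intervals of the change by MJC13 were wide, with a median 95% half-width of 0.63 over all probes, so these values do not show an equal response. AZGP1, a secreted zinc-binding glycoprotein, and TMPRSS2, a membrane serine protease, had log2 responses of 0.74 and 0.64 with MJC13, against 1.27 and 1.17 with no antagonist. ZBTB16, a transcriptional repressor, had 0.59 and 0.65 by the same comparison, but its other probes gave 0.62 and 0.04, and 0.31 and 0.65.

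Other androgen-induced genes had lower values with MJC13 than without it. KLK2, a further kallikrein, read 7.95, 7.10 and 8.32 with DHT and MJC13, and 6.57, 6.93 and 6.93 with MJC13 alone. Its log2 response was 0.98 with MJC13 against 2.23 with no antagonist, a change of -1.26 (unadjusted p = 0.00256 with the block, adjusted p = 0.813). ORM1, a plasma acute-phase glycoprotein, read 8.13, 5.99 and 8.03 with DHT and MJC13, and 6.20, 6.15 and 6.09 with MJC13 alone. The number 2 array thus showed no increase, while the arrays numbered 1 and 3 were 1.93 and 1.94 higher than their pairs. ORM2 had differences of 1.55, -0.20 and 1.22. The 2 genes are near-identical copies, and their probes may each read both transcripts. HPGD, which inactivates prostaglandins, had 0.78 with MJC13 and 2.27 without. MAK, a germ cell and prostate kinase, had 0.03 and 0.77. FKBP5, which encodes the FKBP51 cochaperone of the receptor, read 11.59, 11.20 and 12.29 with DHT and MJC13, and 11.53, 11.10 and 11.64 with MJC13 alone, a log2 response of 0.27 against 0.91 with no antagonist.

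In all, 12 of the 44 genes had a lower log2 response with MJC13 than without it, at an unadjusted p under 0.05 in the blocked fit. None had a higher one. Of all genes, 2.56% had a lower and 2.31% a higher signed response, whatever the direction of the response itself. These 12 were ORM1, ORM2, KLK2, HPGD, HERC3, PGC, EAF2, PMEPA1, ABCC4, FKBP5, MAK and BMPR1B. None passed after adjustment over all probes. The signed response with MJC13 was lower than that with flutamide for 1 of the 44 genes, BMPR1B (-0.17 and 0.65), and higher for none. This was at an unadjusted p under 0.05 in the blocked fit, where 2.58% of all genes were lower and 2.46% higher. No probe of 28334 passed that limma test after adjustment, the lowest adjusted p being 0.270 with the block. At an unadjusted p under 0.05 with the block, the signed difference was positive for 827 probes and negative for 960. The median 95% half-width of the difference was 0.63.

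The luminal secretory proteins, a list that shares KLK3, KLK2, KLK4, ORM1, ORM2, PGC, AZGP1 and ACP3 with the androgen-induced genes, had a median of 0.68 with MJC13, 1.13 with no antagonist and 0.56 with flutamide over 14 genes. MSMB, the secreted beta-microseminoprotein, was higher by 0.62, and FOLH1, prostate-specific membrane antigen, was lower by 0.27 with DHT and MJC13 (values with an unadjusted p of 0.025 and 0.45). The promoter of KLK3 is shown because this gene had the largest difference of the list. The 250 bases before its start (GRCh38.p14, chr19:50854665-50854914, plus strand, from RefSeq) hold 1 match to the androgen receptor hexamer AGAACA, searched on both strands, in capitals, 170 bases before the start.
KLK3: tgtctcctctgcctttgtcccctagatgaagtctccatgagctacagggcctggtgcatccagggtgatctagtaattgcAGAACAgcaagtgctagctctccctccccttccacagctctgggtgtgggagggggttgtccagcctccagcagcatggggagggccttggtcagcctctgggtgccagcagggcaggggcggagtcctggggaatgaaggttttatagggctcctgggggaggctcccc
The hexamer was found in 1 of 37 androgen-induced promoters of this length (2.7%) and in 12.4% of all 27305 promoters. The whole palindromic androgen response element, made of this hexamer and its inverted repeat, was in none of the 37. It was in only 1 of all 27305 promoters, so its absence from the 37 does not set them apart. A match is a description of letters, and receptor sites farther from the start were not searched.

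**Figure D2:**
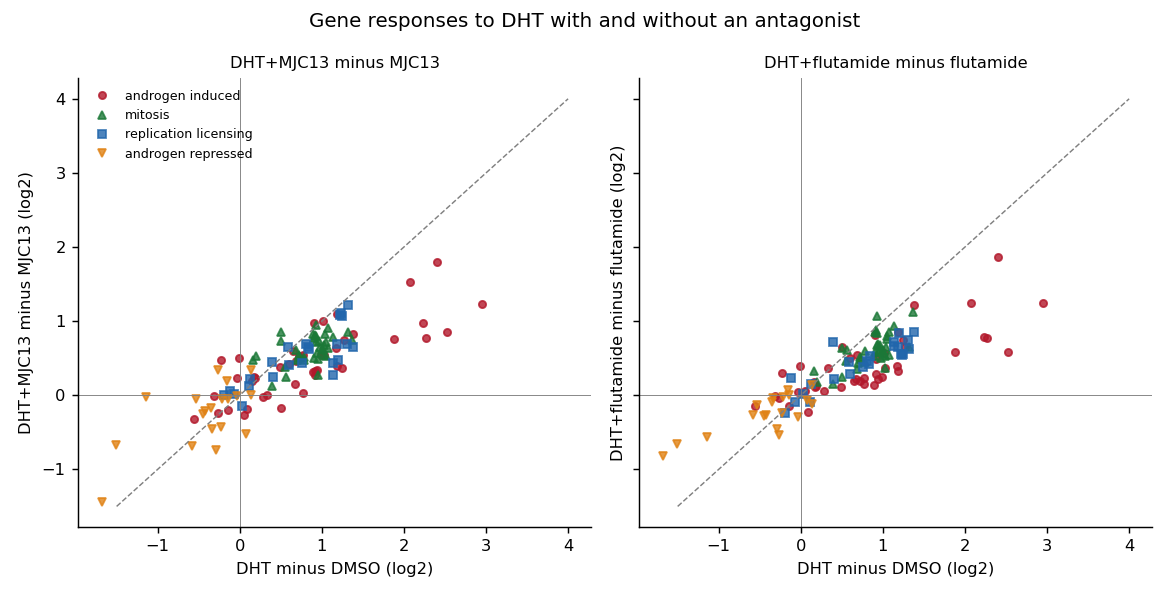
Log2 DHT responses of single genes with MJC13 (left) and with flutamide (right) against the response with no antagonist, for 4 gene lists. For genes raised by DHT, points below the dashed line of equal responses have a smaller response with the antagonist. ORM1, ORM2, KLK2, KLK3, HPGD and TRPM8, the androgen-induced genes at the far right, lie there. For genes lowered by DHT, a weaker fall with the antagonist lies above the line.

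Genes known to be lowered by androgen had smaller values as a group. Of 19 measured, 6 (31.6%) were lower with DHT and MJC13 at an unadjusted p under 0.05 in the blocked fit and 1 was higher. In the same test 4.07% of all genes were lower and 4.84% higher. Without the block, 3 were lower and none higher (2.57% and 2.9% of all genes). The median of the list was -0.18, against -0.29 with no antagonist. MYLK, a myosin light chain kinase, read 7.88, 8.58 and 7.20 with DHT and MJC13, and 9.06, 9.18 and 9.74 with MJC13 alone. The groups did not overlap, and the log2 difference was -1.44 ± 0.32 (SE with the block, adjusted p = 0.137), against -1.68 with no antagonist. A second MYLK probe gave -0.27. NTS (neurotensin), BCHE (butyrylcholinesterase) and OPRK1 (a kappa opioid receptor) had -0.73, -0.68 and -0.67. NTS averaged 6.06 with DHT and MJC13, below the 6.31 that a probe mean had to exceed. A second BCHE probe gave -0.45. OPRK1 read 11.60, 11.90 and 9.88 with DHT and MJC13, and 11.82, 12.13 and 11.46 with MJC13 alone. Most of the OPRK1 difference thus came from the number 3 pair. UGT2B10, of the enzymes that conjugate androgens, had -0.03 with MJC13 and -1.14 with no antagonist. Outside the list, PCDH11X, a protocadherin, had -1.17 with MJC13 and -1.25 with no antagonist, and its other probes gave -1.10 and -1.01 with MJC13. GRIK1, a glutamate receptor subunit, had -1.19 and -1.23 by the same comparison, and -0.62 with MJC13 by another probe.

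Genes of DNA replication and mitosis made up the other large class with higher values with DHT and MJC13 than with MJC13 alone. However, none of their list members passed at an adjusted p under 0.05 with or without the block over 18 arrays. The lists were chosen with earlier results of these data known, so their shares are not independent evidence. Trend and robust moderation with the block was a setting added after seeing the data. Of its 34 called probes, 9 were of these lists or of the G1 to S control list. These were EXO1, CDC25A, E2F2, CCNA2, GINS2, FEN1, POLE2, MCM3 and MCM10. In the blocked fit without the arrays numbered 2, members of these lists were 2 of the 10 (EXO1 and E2F2). They were 0 of the 5 called by the blocked fit itself. With the block, they were also 0 of the 2 called with no filter and 0 of the 3 with the filter at the 60th percentile. Of all 14433 genes, 132 (0.915%) are on these lists. CDC25A and E2F2 are of the G1 to S control list, and not of the replication and mitosis lists. Cell cycle genes are switched on in sequence. E2F transcription factors, freed from RB proteins, activate the genes of S phase, and the MuvB complexes with B-MYB and FOXM1 activate those of mitosis through a promoter element called the cell cycle homology region. Of 37 mitosis genes, 37 were higher on average with DHT and MJC13. At an unadjusted p under 0.05, 30 (81.1%) were higher in the blocked fit, against 4.84% of all genes. Only 1 was so without the block, against 2.9% of all genes. The median log2 response was 0.63 (1.54-fold), compared with 0.93 with no antagonist and 0.60 with flutamide. All 3 same-numbered differences were above 0 for 34 of the 37 genes, against 17.1% of all genes, whereas the groups did not overlap for 1 of 37, against 5.68% of all genes.

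The arrays differed in the level of these genes by number. The level of the mitosis list (the median over its genes of the log2 value minus the mean of the 18 arrays) was 0.18, -0.64 and 0.92 for numbers 1, 2 and 3 with DHT and MJC13, and -0.35, -1.06 and 0.04 with MJC13 alone. The array with DHT and MJC13 numbered 2 thus lay below the MJC13 arrays numbered 1 and 3. Number 2 was the lowest and number 3 the highest in each of the 6 groups. Whether the numbers stand for separate cultures or days was not stated. The androgen-induced list showed the same order within the groups given DHT (0.15, -0.15 and 0.42 with DHT and MJC13).

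**Figure D3:**
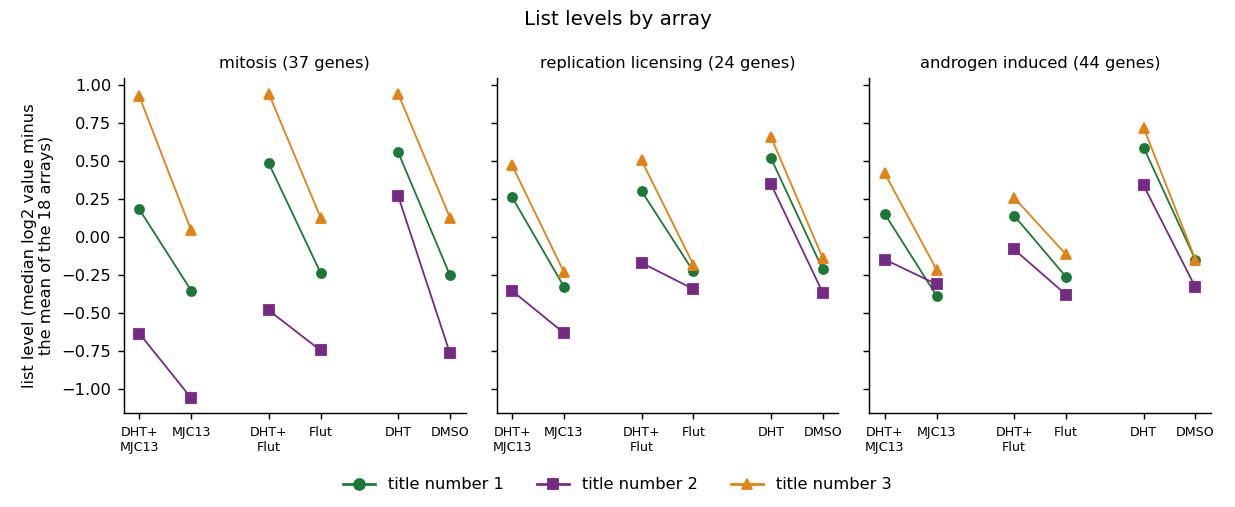
Level of 3 gene lists in each of the 18 arrays, as the median over genes of the log2 value minus its mean over all arrays, with lines joining arrays of the same title number. The mitosis level of number 2 is the lowest in all 6 groups, and each mitosis line is higher at the group given DHT.

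CCNA2 (cyclin A2), which drives S phase and entry into mitosis, read 11.91, 10.96 and 12.40 with DHT and MJC13, and 11.03, 10.29 and 11.40 with MJC13 alone. The groups overlapped, but each array was 0.66 to 1.00 above the array of the same number. The log2 response was 0.85 ± 0.17 with the block (SE, adjusted p = 0.0970) and 1.31 with no antagonist. CENPA, the centromeric histone, NCAPG, a condensin subunit, and BUB1B, a spindle checkpoint kinase, had 0.94, 0.91 and 0.85, against 0.93, 1.07 and 0.50 with no antagonist. A second probe of CENPA gave 0.32, against 1.29 with no antagonist. AURKB, TTK and FOXM1, 2 mitotic kinases and a transcription factor of mitotic genes, had 0.75, 0.79 and 0.73. PLK1, TPX2 and PTTG1 were the mitosis genes with the smallest values, 0.25, 0.27 and 0.13. No mitosis gene had a response that differed with MJC13 at an unadjusted p under 0.05, although 32 of 37 had a smaller value than with no antagonist (49.4% of all genes had).

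The genes that load and fire replication origins gave a median log2 response of 0.46 with MJC13, 0.82 with no antagonist and 0.50 with flutamide. Of 24 measured, 12 (50%) were higher at an unadjusted p under 0.05 in the blocked fit, against 4.84% of all genes. MCM10, CDT1, GINS2 and CDC45, which load or assemble the replicative helicase, led the list with 1.22, 1.11, 1.08 and 1.07. Their responses with no antagonist were 1.32, 1.24, 1.23 and 1.25. A second MCM10 probe gave 0.89 with MJC13, against 1.75 with no antagonist. The origin recognition subunits ORC2, ORC4 and ORC6 were near 0, with 0.12, -0.15 and 0.01. CDC6, which loads the helicase together with CDT1, and GINS4 had smaller responses with MJC13 (0.65 and 0.27) than without it (1.38 and 1.13), at an unadjusted p of 0.00883 and 0.0300 and with no adjusted p under 0.05.

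At the replication fork, 14 of 28 genes (50%) were higher at the same threshold, against 4.84% of all genes, with a median of 0.52. POLE2, a subunit of DNA polymerase epsilon, RRM2, of ribonucleotide reductase, and FEN1, the flap endonuclease, had 1.02, 0.94 and 0.88. For FEN1 the response with no antagonist was 1.25, and a second probe gave 0.65 with MJC13 against 1.53. PCNA, the sliding clamp, had 0.52 (unadjusted p = 0.064). The subunits of the single-strand binding protein RPA1, RPA2 and RPA3 had 0.16, 0.28 and 0.16. PRIM1, the primase, had 0.53 with MJC13 and 1.32 without it.

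Of 21 S-phase chromatin and repair genes, 13 (61.9%) were higher at that threshold, against 4.84% of all genes, and the median was 0.56. EXO1, an exonuclease of mismatch and break repair, read 10.15, 9.08 and 10.27 with DHT and MJC13, and 8.73, 8.17 and 8.79 with MJC13 alone. The groups did not overlap, and the log2 response was 1.27 ± 0.22 (SE with the block, adjusted p = 0.0970), against 1.45 with no antagonist and 1.12 with flutamide. A second EXO1 probe gave 0.42, against 1.40 with no antagonist. ASF1B, a histone chaperone, RAD54L, of homologous recombination, and UHRF1, which directs maintenance methylation, had 1.17, 1.13 and 0.87. WDR76, a gene named by the study, had 0.27 with MJC13, with -0.36 in the number 2 pair, against 1.32 with no antagonist.

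The list of G1 to S control genes was split, with a median of 0.12. E2F2, an activating E2F factor, and CDC25A, the phosphatase that switches on CDK2, had the largest values, 1.11 and 1.00, each with an adjusted p under 0.10 in the blocked fit (0.0981 and 0.0970). CDC25A read 10.34, 9.56 and 10.54 with DHT and MJC13, and 9.16, 8.91 and 9.37 with MJC13 alone. However, a second CDC25A probe gave 0.30, against 0.70 with no antagonist. E2F7, a repressive E2F factor, differed 1.76-fold with MJC13, 2.82-fold with no antagonist and 2.47-fold with flutamide. CDKN2B, the inhibitor of CDK4 and CDK6, had -0.80, and E2F1, CCND1 and RB1 had 0.32, -0.15 and -0.19.

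The promoters of GINS2, CDC25A and E2F2 are shown because these genes were among those with the largest responses in their lists and hold a match to an E2F site (TTTCCCGC or TTTGGCGC on either strand, in capitals). The windows are the 250 bases before the start in GRCh38.p14, from RefSeq: chr16:85688955-85689204, minus strand for GINS2, chr3:48188418-48188667, minus strand for CDC25A and chr1:23531234-23531483, minus strand for E2F2. The matches lie 31, 44 and 42 bases before the start.
GINS2: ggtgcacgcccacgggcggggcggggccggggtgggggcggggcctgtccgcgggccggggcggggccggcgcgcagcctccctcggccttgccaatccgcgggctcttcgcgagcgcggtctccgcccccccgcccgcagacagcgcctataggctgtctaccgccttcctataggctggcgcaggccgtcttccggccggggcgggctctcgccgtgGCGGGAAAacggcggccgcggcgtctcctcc
CDC25A: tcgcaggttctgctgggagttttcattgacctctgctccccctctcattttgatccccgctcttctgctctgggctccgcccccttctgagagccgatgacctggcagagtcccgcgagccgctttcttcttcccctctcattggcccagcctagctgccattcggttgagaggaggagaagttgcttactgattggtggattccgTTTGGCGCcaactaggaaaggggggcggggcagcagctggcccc
E2F2: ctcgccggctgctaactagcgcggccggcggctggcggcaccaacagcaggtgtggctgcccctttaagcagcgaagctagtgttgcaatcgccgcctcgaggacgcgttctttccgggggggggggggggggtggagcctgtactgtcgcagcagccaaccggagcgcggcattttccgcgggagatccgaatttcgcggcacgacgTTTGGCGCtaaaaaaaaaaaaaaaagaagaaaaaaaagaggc
The promoters of NCAPG, CENPA and BUB1B, with chr4:17810729-17810978, plus strand, chr2:26785806-26786055, plus strand and chr15:40160819-40161068, plus strand, are shown with the cell cycle homology region TTTGAA in capitals, 35, 18 and 23 bases before the start.
NCAPG: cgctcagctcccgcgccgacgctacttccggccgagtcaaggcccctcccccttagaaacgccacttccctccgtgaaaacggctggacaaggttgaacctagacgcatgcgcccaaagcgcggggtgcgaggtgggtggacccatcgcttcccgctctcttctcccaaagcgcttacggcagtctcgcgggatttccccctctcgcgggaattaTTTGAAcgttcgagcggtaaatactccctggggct
CENPA: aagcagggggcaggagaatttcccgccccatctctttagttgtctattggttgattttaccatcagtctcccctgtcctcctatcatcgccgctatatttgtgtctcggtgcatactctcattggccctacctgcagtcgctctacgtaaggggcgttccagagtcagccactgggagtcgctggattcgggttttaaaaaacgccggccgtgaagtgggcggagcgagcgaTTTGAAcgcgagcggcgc
BUB1B: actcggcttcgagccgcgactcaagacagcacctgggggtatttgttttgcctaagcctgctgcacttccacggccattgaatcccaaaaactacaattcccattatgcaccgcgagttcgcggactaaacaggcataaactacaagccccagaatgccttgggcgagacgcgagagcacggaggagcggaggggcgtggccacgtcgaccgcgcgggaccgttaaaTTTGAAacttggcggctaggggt
The E2F letters were found in 6 of 21 origin promoters (28.6%), 6 of 25 fork promoters (24%), 5 of 17 G1 to S promoters (29.4%), 2 of 17 S-phase chromatin promoters (11.8%) and 2 of 31 mitosis promoters (6.45%), and in 1.96% of all 27305 promoters. The letters TTTGAA were found in 14 of 31 mitosis promoters (45.2%), in none of the 21 origin promoters and in 13.6% of all promoters. CCAAT, searched on both strands, was in 67.7% of the mitosis promoters and 33% of all. The CENPA window also holds the E2F letters TTTCCCGC, which are not in capitals. A match describes the letters and is not a binding site.

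**Figure D4:**
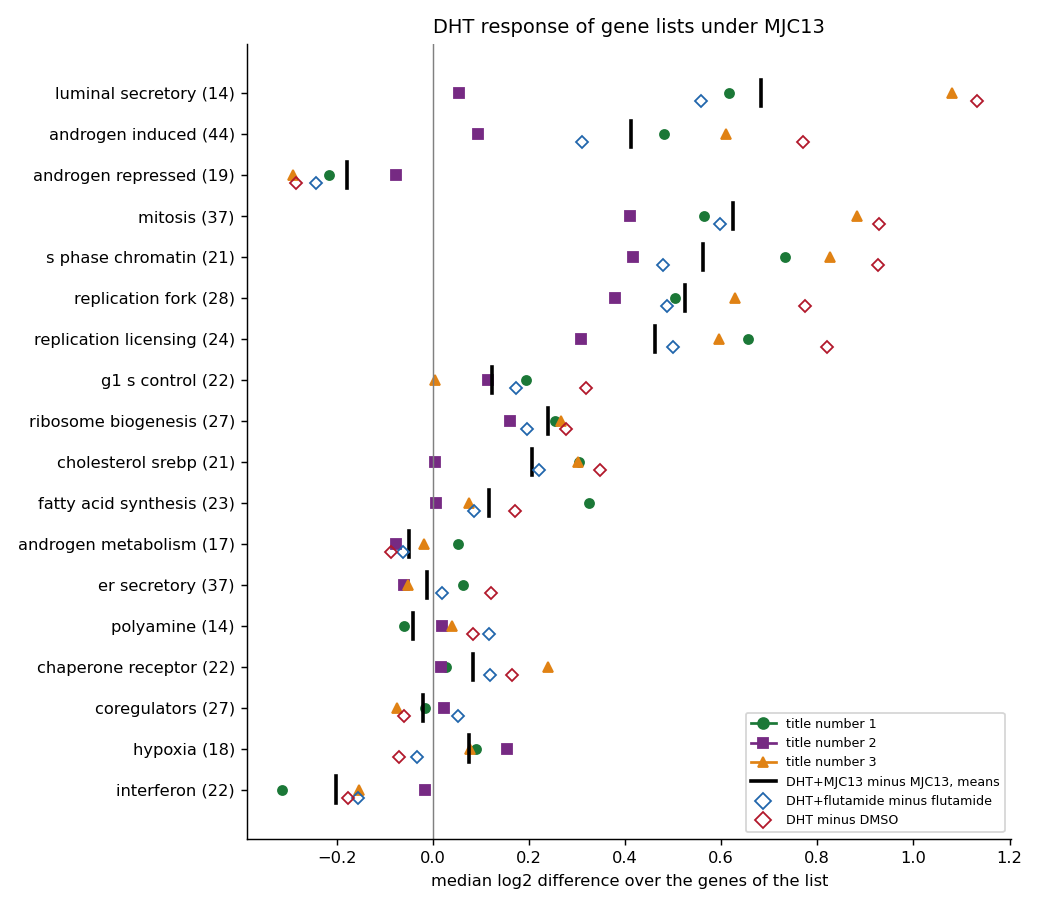
Median log2 DHT response of gene lists (number of genes in parentheses), where points give the difference between same-numbered arrays with DHT and MJC13 and with MJC13 alone, black bars the difference of group means, and open diamonds the responses with flutamide and with no antagonist. The 4 lists of replication and mitosis lie above 0 for each number, and the androgen-induced and luminal secretory lists are near 0 for number 2.

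Of the 28 probes called at an adjusted p under 0.10 with the block, which were named after their values were seen, 6 read members of the cell cycle lists (CCNA2, CDC25A, E2F2, E2F7, EXO1 and FEN1) and 1 reads TRPM8. Of all 14433 genes, 132 (0.915%) are on those lists. Others among the 28, on none of the lists and picked for their known roles, were SPC25, of the kinetochore (1.10), CENPK, of the centromere (1.05), FBXO5, an inhibitor of the anaphase-promoting complex (0.91), CEP55, of abscission (0.90), CKAP2L, of the spindle (0.95), and TICRR, of origin firing (1.04). Their responses with no antagonist ranged from 0.88 for CKAP2L to 1.30 for TICRR. TM4SF1, a membrane protein of the tetraspanin-like family, had 1.25 with MJC13 and 1.66 with no antagonist. MATN2, a matrix protein, had -0.94 and -1.17.

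A further set had larger values with MJC13 than without it. These probes were picked by their difference with MJC13, which favors such a contrast, and no change of response passed after adjustment. PLOD2, a lysyl hydroxylase of collagen, read 8.98, 10.14 and 10.01 with DHT and MJC13, and 7.05, 6.30 and 8.57 with MJC13 alone. The groups did not overlap, and the log2 difference was 2.40 ± 0.44 (SE with the block, adjusted p = 0.0970 with the block and 0.744 without it), compared with 0.77 with no antagonist and 1.59 with flutamide. The change of the PLOD2 response by MJC13 was 1.63 (limma, unadjusted p = 0.0176 and adjusted p = 0.852 with the block). Its mean was 7.31 with MJC13 alone and 8.02 with DMSO, and 9.71 with DHT and MJC13 and 8.79 with DHT. A second PLOD2 probe gave 0.59. The number 2 pair contributed 3.85 of log2 difference, and the other pairs 1.92 and 1.44. Among the 15 gene-annotated probes with the largest differences and no overlap between groups, those of RCAN2, a calcineurin inhibitor, FOXP3, a transcription factor known from regulatory T cells, TNFRSF1B, a TNF receptor, TRAF4, a signaling adaptor, and MUC6, a gel-forming mucin, had 1.21, 1.20, 1.25, 1.27 and 1.55 with MJC13. Their values with no antagonist were 0.16, -0.32, -0.26, -0.19 and 0.10. With MJC13 alone, the RCAN2, FOXP3 and TNFRSF1B probes averaged 6.15, 6.37 and 6.12, close to the 6.31 that a probe mean had to exceed. MUC6, RCAN2 and TRAF4 each have another probe, which gave 0.14, -0.55 and -0.54, so that the probes of these genes disagreed. For RCAN2 and TRAF4 the other probe was the brighter, so that the ranking by probe does not hold for these genes. The probes lower by the largest differences included those of RNF182, a ubiquitin ligase (-1.03, against -0.36 with no antagonist), and C1R, a complement protease (-1.16 and -0.31), whose other probes gave 0.36 and, for the brighter, -0.28.

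**Figure D5:**
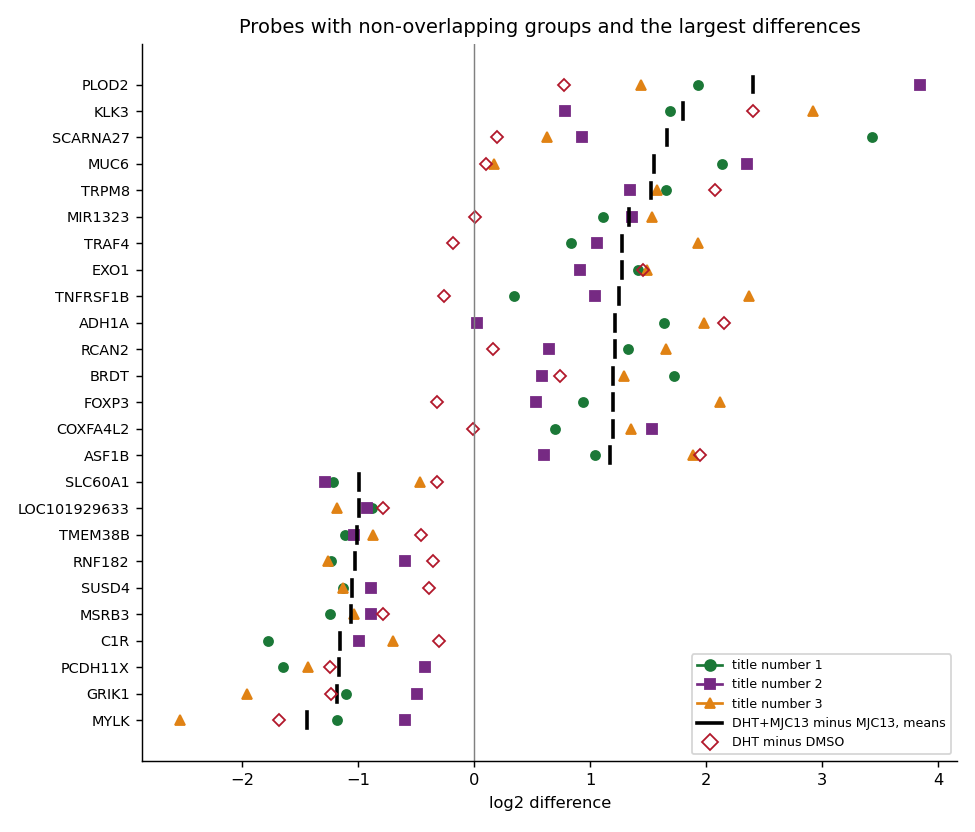
The 15 gene-annotated probes with the highest and the 10 with the lowest log2 difference among those whose groups did not overlap and whose 3 same-numbered differences had 1 sign, where points give the difference between same-numbered arrays, black bars the difference of means, and open diamonds the response to DHT with no antagonist. KLK3, TRPM8, EXO1, ADH1A, ASF1B, MYLK, GRIK1 and PCDH11X have diamonds on the same side as the points, while MUC6, MIR1323, RCAN2 and COXFA4L2 have a diamond near 0.

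Of 26 genes of glucose use and AMPK, 5 (19.2%) were higher at an unadjusted p under 0.05 in the blocked fit and 2 lower (7.69%), against 4.84% and 4.07% of all genes, with a median of 0.01. PFKFB3 and PFKFB4, which make the glycolytic activator fructose 2,6-bisphosphate, both had 0.66 with MJC13, against 0.40 and -0.03 with no antagonist. A second, dimmer PFKFB3 probe gave 0.26 and 0.33. The glucose transporter SLC2A1 had 0.48 and hexokinase HK2 had 0.61. PRKAB2, an AMPK subunit, had -0.67. Ribosome biogenesis genes were higher on average for 24 of 27, with a median of 0.24, close to the 0.28 with no antagonist, and 3 (11.1%) passed the unadjusted threshold as higher, against the same 4.84%. These were NOC3L, BOP1 and NOLC1 (0.67, 0.55 and 0.39). Cholesterol synthesis genes had a median of 0.21, with LSS, DHCR7 and FDPS (0.54, 0.53 and 0.46) past that threshold of 21 measured (14.3%, against 4.84%), and a median of 0.35 with no antagonist. Second probes of LSS and DHCR7 gave -0.12 and 0.31 with MJC13. Fatty acid synthesis, secretory pathway and polyamine genes had medians of 0.12, -0.01 and -0.04.

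The chaperones of the receptor and its coregulators gave 0 genes past the unadjusted threshold of 22 and 27 measured. Of all genes, 4.84% were higher and 4.07% lower, and at these shares lists of this size would hold few such genes. FKBP4, the FKBP52 gene, averaged 12.02 with DHT and MJC13 and 11.78 with MJC13 alone, and HSP90AA1 had a log2 response of -0.19. NCOA2, a coactivator, had -0.27. CTNNB1 (beta-catenin), itself a partner of the receptor, gave -0.44, -0.38 and 0.36 with 3 probes. Interferon-induced genes had a median of -0.20, and 1 of 22 was lower at the threshold (4.55%), near the 4.07% of all genes.

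Across the 14433 genes the response with MJC13 correlated with that with no antagonist (Pearson r = 0.43, Spearman rho = 0.33), and with that under flutamide (r = 0.24, rho = 0.15). These contrasts share no arrays but share the array set and its normalization, and genes are not independent replicates. Among the 44 androgen-induced genes r with the no-antagonist response was 0.80. The same-numbered differences of the 3 pairs, which were normalized together, correlated with each other across 28334 probes at 0.22, 0.17 and 0.12.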

How the data were processed

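RNA of 18 LNCaP samples, 3 per group, was hybridized to Illumina arrays. Per the labels and methods, the authors exported signals with GenomeStudio, subtracted background and quantile-normalized with lumi, which gave the deposited log2 values; whether these are plain or variance-stabilized is not stated. A table of signals before normalization (36 columns) carries codes that no label ties to samples and was not used. Quantile normalization sets all arrays to one distribution, so a shift common to most genes cannot be seen.

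Dim probes, at or below the 40th percentile of probe means (6.31), were removed and the rest fitted with limma 3.58.1 in R 4.3.3 as a means model of the 6 groups over all 18 arrays (12 residual degrees of freedom), and again with the title number as a block (10 degrees). Number 1 to 3 was taken to pair the groups compared because each same-numbered correlation of deviations was over 0.1. An exact permutation test of 3 against 3 arrays cannot give a p below 0.1 and was not used. In lists and gene counts a gene is represented by its brightest probe. Of the probes, 30111 have 1 symbol, 8 several and 17104 none. Fold changes are antilogs of differences.

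Named genes are called probes, the 15 highest and 10 lowest differences without overlap, ranked by probe, up to 4 per list, androgen list members with a blocked p under 0.05, and genes named by the study or of the receptor complex, other names being given as chosen after seeing values. The members and the 31 lists were chosen with earlier results of these data known. The limma fits were tested on simulated data. Figures were drawn with matplotlib.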

Additional observations from a re-analysis of the deposited data

How the results depend on the processing

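Precision was limited by 3 arrays per group: the median 95% half-width of a log2 response was 0.49 without and 0.45 with the block, so that responses under about that size could not be told from 0.

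For DHT with MJC13 against MJC13, 0 probes were called without a block and 5 with the replicate block over 18 arrays, and the blocked values are given beside the results above. With the replicate block, the count was 0 to 10 when the arrays of 1 number were left out. Blocked settings added after seeing the data called 28 probes at an adjusted p under 0.10, 2 with no filter on dim probes, 3 with the filter at the 60th percentile and 34 with trend and robust moderation. Of the 5 blocked calls, 4 were among those 34, and 1 was among the 10 without number 2. The other settings called 0: the 6 arrays alone with or without the block, the description number as a block and, all without a block, other filters, trend and robust moderation, thresholds of 0.01 and 0.10, and each array of the 2 groups left out. In the test of a response altered by MJC13, the count was 0 to 1 when 1 array or 1 number was left out, the 1 being without number 3, and 0 otherwise. For the difference from flutamide it was 0 in all settings run. The androgen-induced median stayed between 0.29 and 0.52. SI (sucrase-isomaltase) had a log2 response of -0.46, which lay between -0.80 and 0.012 when 1 array was left out and changed sign only without the DHT and MJC13 array numbered 3. No other recomputed probe changed sign under the settings run, the recomputed probes being those called, those with the largest differences without overlap and the other named probes with a blocked p under 0.05.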
